A study of Mus musculus with 16 samples.

Results

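The Rn45s locus is a ribosomal RNA copy that the mouse assembly mm9 carries on chromosome 17, where its first 50 bp window ends at 39979900 and its last starts at 39985851. Whether it holds the whole gene of the ribosomal RNA precursor was not examined, and its internal parts were not placed. The locus was taken as all windows of 50 bp in that stretch of 6050 bp, with 50 kb on either side as its flanks. Of its windows, 120 were listed in at least 1 of 9 libraries of chromatin immunoprecipitation with sequencing (ChIP), out of 1269475 windows listed anywhere in the genome. All but 1 of its windows were thus listed somewhere. The locus was chosen by its listed signal in these same 9 libraries, so its levels and its listing are given as a description, with no test.

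Ribosomal RNA genes lie in tandem arrays of many near-identical copies, which reference assemblies hold only in small part. RNA polymerase I transcribes them in the nucleolus into a long precursor that is cut into the RNAs of the small and large ribosomal subunits. Some copies are active and others are packed into silent chromatin. RNA polymerase II (Pol II), which transcribes protein-coding genes, does not make this precursor. Reads from any copy can be placed on the Rn45s stretch, so a level there is a sum over an unknown number of copies and cannot be read as occupancy of this copy. Whether the authors kept reads with several matches or repeated reads is not given in the sources used here.

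V6.5, a mouse embryonic stem cell line, was the source of all cells: it was grown as embryoid bodies (4 days) and turned into a monolayer of neural progenitors, which formaldehyde (1%) fixed. Untreated cells gave 2 libraries for Cbx3 (sets 1 and 2), the heterochromatin protein HP1 gamma, and 1 library for Pol II. Cells harvested 72 hours after transfection with an siRNA against luciferase (control siRNA) or against Cbx3 (Cbx3 siRNA) gave 1 library each for Pol II, for Med26 and for Cdk8. Med26 is a subunit of Mediator, the coactivator that links transcription factors to Pol II, and Cdk8 is the kinase of its detachable module. Nothing in the labels says whether the Cbx3 sets came from separate cultures. The 7 input libraries, the Cbx3 level after knockdown and the neural identity of the cells were not analysed here. In the gene table of another assembly, GRCm38.p6, a ribosomal RNA pseudogene, Rn18s-rs5, stands on chromosome 17 between Esp15 and AY036118, and it was not placed on mm9. Windows are named below by their first base on chromosome 17.

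The values are the authors' signal per window, and only windows that passed their criteria are listed. The lowest value in the lists was between 6.01 and 9.02 and the median between 7.93 and 33.8. Every value was a whole multiple of 1 step. Here 50 steps were taken as 1 read over a whole window, which is an inference from the values. On it, 1 read carried a signal of 3.98 in Cbx3 set 1, 2.18 in set 2, 1.05 in untreated Pol II, 1.10 in both siRNA Pol II libraries, 0.962 in both Med26 libraries and 1.41 in both Cdk8 libraries. The total reads per library are unknown, so levels were compared between libraries of a pair only.

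Rn45s held the highest window of the whole list in 7 of the 9 libraries. That window had a signal of 168 in untreated Pol II, 158 in control siRNA Pol II and 162 in Cbx3 siRNA Pol II. It had 145 in control siRNA Med26 and 112 in Cbx3 siRNA Med26, and 425 and 464 in control and Cbx3 siRNA Cdk8. The highest window outside the locus had 144, 157 and 116 in the same Pol II libraries, 123 and 59.0 in Med26, and 377 and 367 in Cdk8. The lead of Rn45s was thus small in control siRNA Pol II, at 1.003 times the next window, and widest in Cbx3 siRNA Med26, at 1.89 times. In Cbx3 set 1 the highest Rn45s window had a signal of 1430, and 3 windows of the genome lay above it, up to 1445. In Cbx3 set 2 it had 893, and 294 windows lay above it, up to 291644. Expressed as reads covering a window, the highest Rn45s windows equalled 359 (set 1) and 409 reads (set 2) for Cbx3, 143 to 160 in Pol II, 150 and 116 in Med26 and 301 and 329 in Cdk8.

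**Figure D1:**
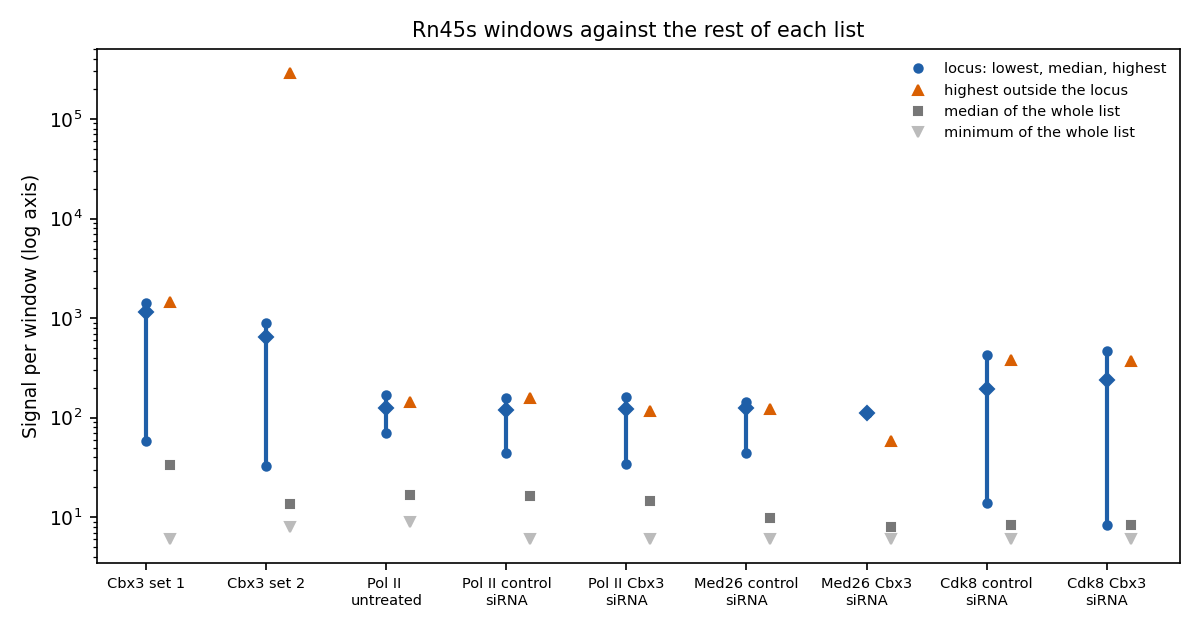
Signal per 50 bp window on a log axis for each library. Blue marks give the lowest, median (diamond) and highest listed Rn45s window, the orange triangle the highest window outside the locus, and grey marks the median and minimum of the whole list. The Rn45s maximum lies above the orange triangle in 7 libraries and below it in both Cbx3 sets.

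Cdk8 was the antibody for which Rn45s took the largest part of the list. The locus held 111 of 9960 listed windows under control siRNA (1.11%) and 13.6% of the summed signal. Under Cbx3 siRNA it held 111 of 10955 windows (1.01%) and 14.6% of the summed signal. In the other 7 libraries its share of the summed signal lay between 0.295% (control siRNA Pol II) and 1.12% (control siRNA Med26). These lists held from 2721 windows (Cbx3 siRNA Med26) to 923942 (Cbx3 set 1), so the shares also depend on list length. Divided by its share of listed windows, the Rn45s share of signal was highest for Cbx3, at 27.8 (set 1) and 18.5 (set 2). It was 12.2 and 14.4 for control and Cbx3 siRNA Cdk8, and 5.91 to 12.5 in the Pol II and Med26 libraries. Of the 100 highest windows of a list, Rn45s held 66 and 70 in control and Cbx3 siRNA Cdk8, 59 in Cbx3 set 1, 46, 36 and 37 in untreated, control and Cbx3 siRNA Pol II, 16 in control siRNA Med26 and 1 in Cbx3 siRNA Med26. It held 0 of the 100 highest windows of Cbx3 set 2. By summed signal, with windows up to 200 bp apart merged into regions, the largest Rn45s region ranked 1 in all Pol II and Cdk8 libraries and in control siRNA Med26, 3 of 1745 in Cbx3 siRNA Med26, 6 of 419145 in Cbx3 set 1 and 13 of 126451 in Cbx3 set 2.

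The number of listed Rn45s windows differed widely between antibodies. Cdk8 had 111 in either arm and Cbx3 109 and 101, so these libraries covered nearly the whole locus. Pol II had 51 in untreated, 58 in control siRNA and 45 in Cbx3 siRNA cells. Med26 had 16 under control siRNA and 1 under Cbx3 siRNA. No window was listed in all 9 libraries, since the sole window of Cbx3 siRNA Med26, at 39981151, was missing from untreated and Cbx3 siRNA Pol II and from control siRNA Med26. Of the windows listed anywhere in the genome, 0.000709% were listed in 8 or more libraries, 9 windows in all, and 7 of these were in Rn45s. They lay at 39980301 to 39980550 and at 39980901 to 39981000. Of all listed windows 0.0306% were in 6 or more libraries, against 57 of the 120 in Rn45s, a share that the choice of the locus fixes.

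**Figure D2:**
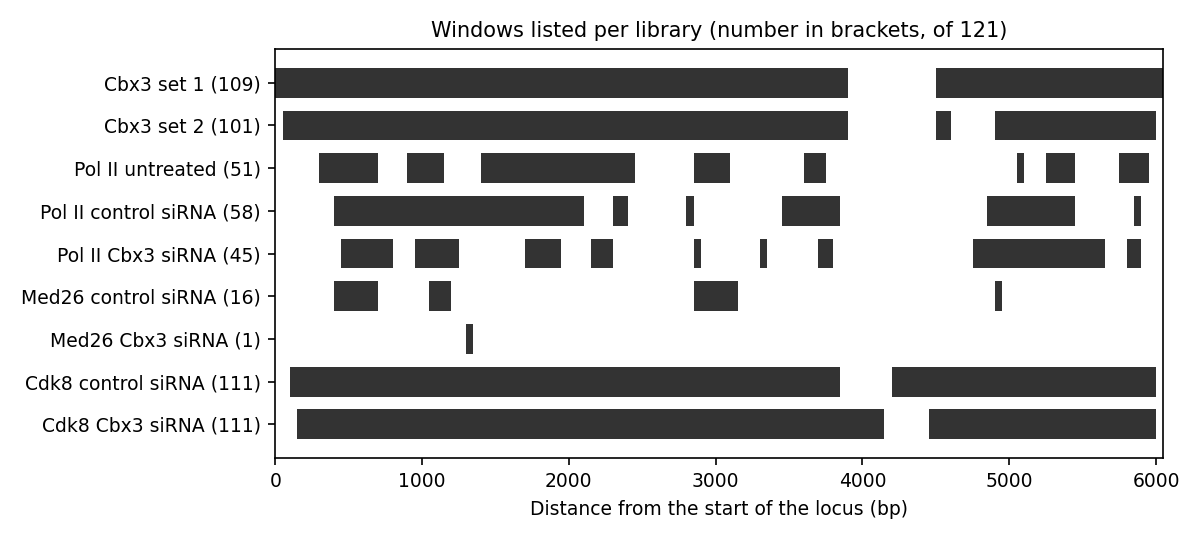
Listed windows of each library (dark bars) along the locus, in bp from its start. Cbx3 and Cdk8 are listed almost throughout except near 4000 bp, while Pol II and Med26 are listed in separate stretches.

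The signal formed 2 blocks. The first spans 3900 bp from the start of the locus to 39983750, and the second spans 1550 bp from 39984351 to its end. The 600 bp between them, from 39983751 to 39984350, were listed by neither Cbx3 set, by no Pol II library and by no Med26 library. Cdk8 alone had windows there, 6 under control siRNA and 6 under Cbx3 siRNA, and they shared only the window at 39984301. Those windows held the lowest Cdk8 signals of the locus, down to 14.0 under control siRNA and 8.43 under Cbx3 siRNA, against a median of 196 and 241 over all listed Rn45s windows. Cbx3 set 1 fell toward the space between the blocks from both sides, with 203 at the last window of the first block and 58.9 at the first window of the second block. Set 2 fell likewise, to 108 and 32.4.

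Listing stopped near the edges of the locus. In the 2000 windows of the flanks, no Pol II, Med26 or Cdk8 library had a listed window. Cbx3 set 1 had 41 (2.05%), and set 2 had 6 (0.30%). On the whole of chromosome 17, set 1 listed 2.13% and set 2 0.573% of the windows between its first and last listed one. The flank share of set 1 was thus near that of the chromosome, and that of set 2, which rests on 6 windows, was lower. The highest flank signal was 41.3 in set 1 and 19.4 in set 2, so the highest Rn45s windows were 34.6 and 46.1 times as high. Chromosome 17 as a whole was thinly listed in the other libraries, at 0.00468 to 0.336% of windows, against none of the 2000 flank windows.

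Several peaks and dips fell at the same windows for different antibodies. The window at 39980301, 450 bp into the locus, was higher than both its neighbours in all 7 libraries that listed the 3 windows. Its signal was 1334 in Cbx3 set 1, 800 in set 2, 168 and 158 in Pol II of untreated and control siRNA cells, 145 in control siRNA Med26, and 224 and 260 in control and Cbx3 siRNA Cdk8. It was also the highest and first listed window of Cbx3 siRNA Pol II, at 162. The window at 39981001 was a local peak in all 6 libraries that could show it, and those at 39983401 and 39983551 in all 5. Local dips were as well aligned: the window at 39983501 was lower than both neighbours in all 6 libraries that listed them, and that at 39983351 in all 5. For example, Cbx3 set 1 went from 638 at 39983351 to 822 at 39983401, and control siRNA Cdk8 from 120 to 167. The windows at 39982701, 39983251 and 39984701 were local peaks in all 4 libraries that could show each. In all, 7 of the 38 windows with a local peak had it in every library able to show it, with at least 2 such libraries. A peak in 1 library alone was seen at 15 windows, and at 2 of these only that library could show one.

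**Figure D3:**
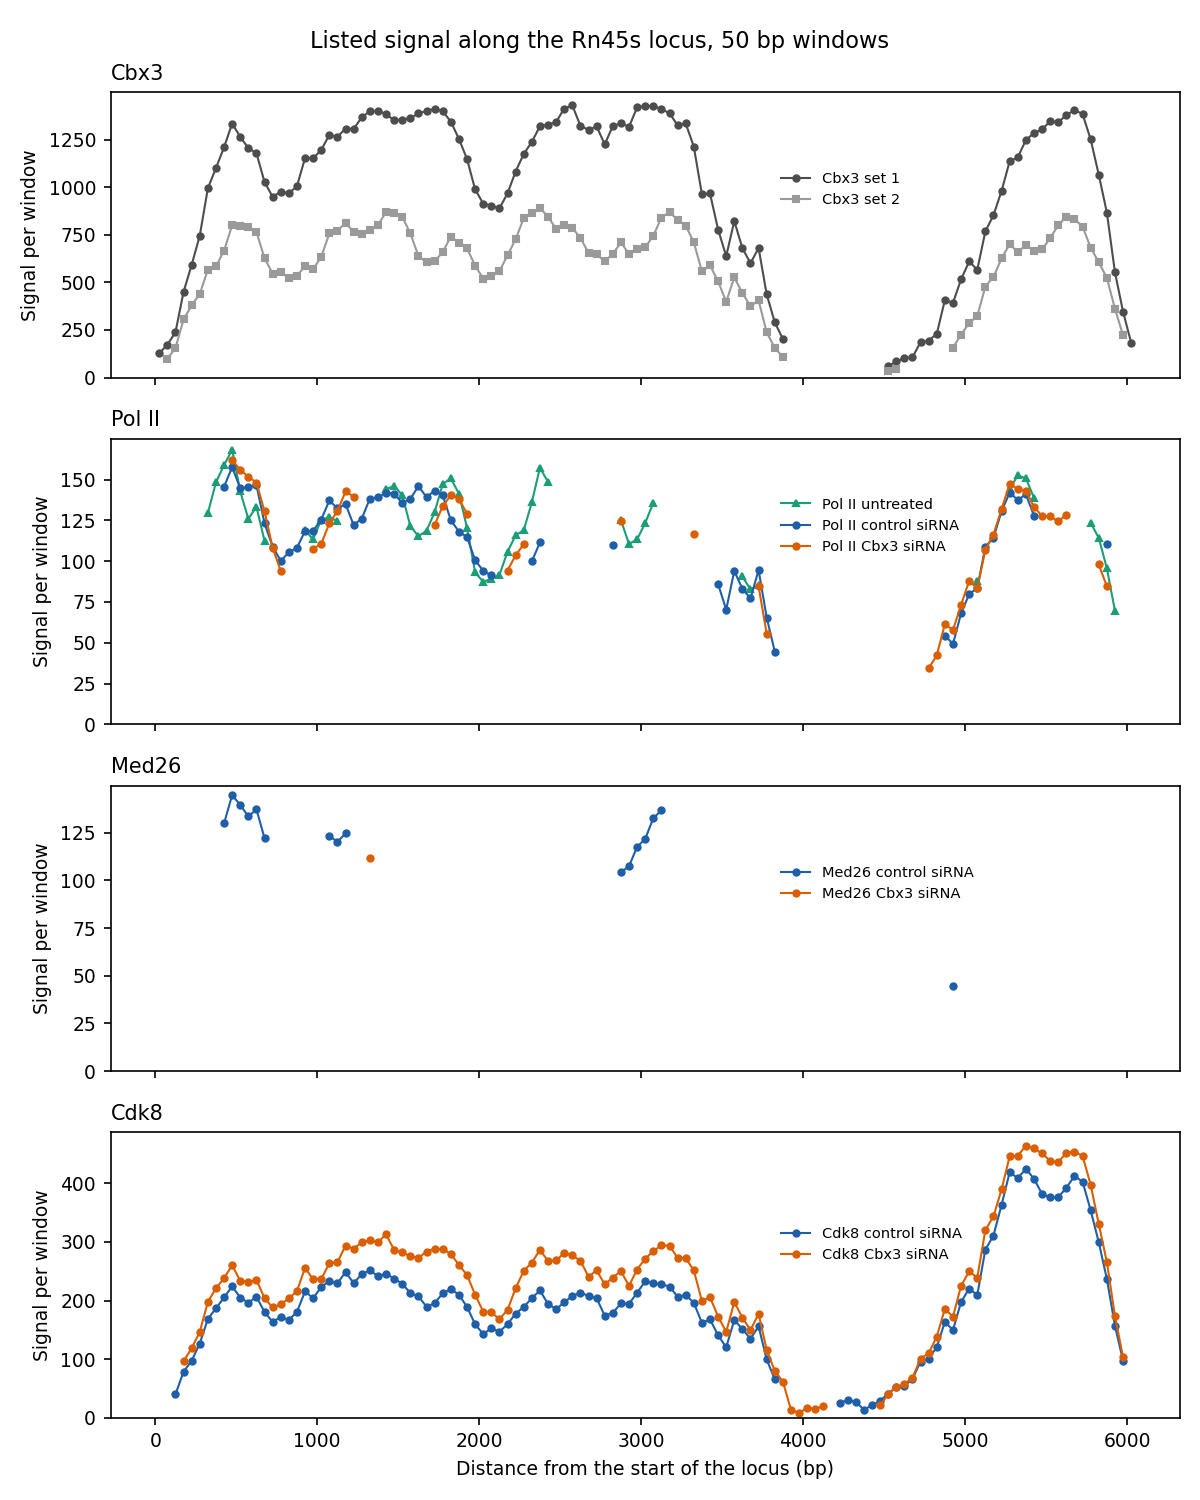
Signal per 50 bp window along the locus for each antibody, with 0 at the bottom of every panel and its own scale. Lines join neighbouring listed windows. The first block shows repeated rises and dips in Cbx3, Pol II and Cdk8, and Cdk8 is highest in the second block.

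Over windows listed in both libraries of a pair, profiles were positively correlated, to differing degrees. With the Med26 libraries left aside, Pearson's correlation lay between 0.714 and 0.964 in the first block (21 pairs of libraries with at least 10 shared windows) and between 0.869 and 0.998 in the second (15 pairs). In the first block the correlation was lower than over the whole locus in all 11 of these pairs that do not set Cdk8 against another antibody, and higher in the 10 pairs that do. The Cbx3 sets correlated at 0.945 over 101 shared windows, and the Cdk8 arms at 0.981 over 105. Control siRNA Pol II and Cbx3 set 1 correlated at 0.906 over 58 windows. Control siRNA Med26 followed control siRNA Pol II at 0.990 over the 10 windows they shared, which include 1 low window of the second block (44.6 and 49.3 at 39984751). With control and Cbx3 siRNA Cdk8 it correlated at 0.665 and 0.608 over 16 windows, and at 0.23 and 0.15 over the 15 of the first block. It followed Cbx3 set 1 at 0.777 over 16, where the rank correlation was only -0.03: leaving out the same second-block window left a Pearson's correlation of -0.08. The Cbx3 sets differed here: for set 2 the same 3 correlations of control siRNA Med26 were 0.924, 0.70 and 0.62. These are descriptions, since neighbouring windows share reads and all libraries share the mapping of the same sequence.

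Cdk8 differed from Cbx3 and Pol II in the relative height of the highest windows of the blocks. Its highest window in the second block was 1.69 times that of the first under control siRNA (425 against 251) and 1.48 times under Cbx3 siRNA (464 against 313). For Cbx3 the same ratio was 0.983 (set 1) and 0.947 (set 2). In untreated, control siRNA and Cbx3 siRNA Pol II it was 0.907, 0.901 and 0.910. Over listed windows the 5 libraries of Cbx3 and Pol II thus lay close together, and both Cdk8 libraries stood apart in the same direction. Untreated Pol II had no listed window from 39985301 to 39985600, and control siRNA Pol II none from 39985301 to 39985700. Both Cbx3 sets had their highest second-block window there, so these Pol II ratios may miss higher windows. The same holds for Cbx3 siRNA Pol II, which had no listed window from 39985501 to 39985650, where the highest second-block window of set 1 lay. Over the whole locus the 10 pairs of a Cdk8 library with a Cbx3 or Pol II library correlated at only 0.492 to 0.737, against 0.733 to 0.964 within the first block and 0.952 to 0.988 within the second (8 pairs). The last 31 windows held 34.8 and 32.6% of the summed Rn45s signal of Cdk8 and 21.5 and 20.4% of that of Cbx3. For Pol II the share was 17.1% in untreated, 20.3% in control siRNA and 40.2% in Cbx3 siRNA cells, the last above both Cdk8 libraries, so by summed listed signal Pol II was not uniformly below Cdk8. With 1 Cdk8 library in each arm, a test of this difference was not run.

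**Figure D4:**
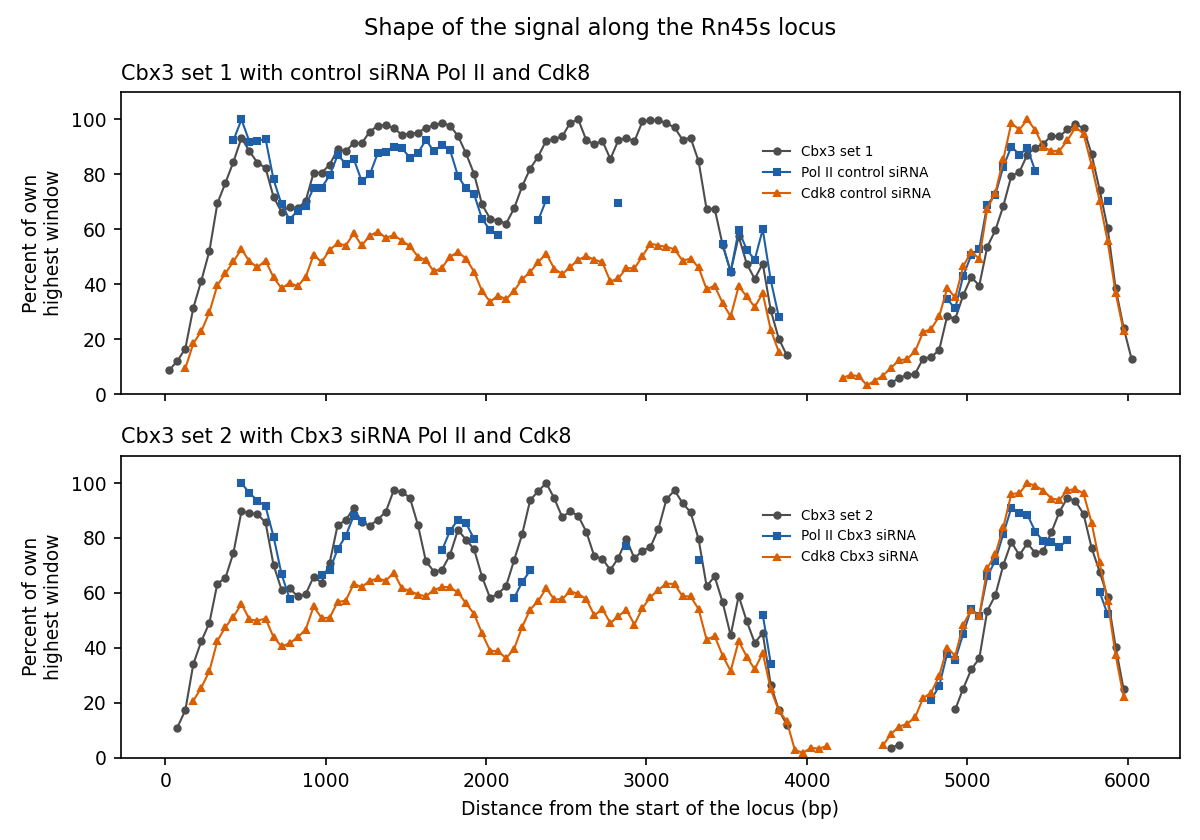
Signal of each window as a percent of the highest Rn45s window of its own library, for 3 libraries a panel. Cdk8 (triangles) lies under Cbx3 and Pol II across most of the first block and reaches its maximum in the second block.

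Unlisted Pol II or Med26 windows inside a block did not border on signal near the list minimum. Some bordered on the lowest listed Rn45s windows. The lowest listed Pol II window of the locus was 69.6 in untreated, 44.5 in control siRNA and 34.3 in Cbx3 siRNA cells, which is 7.71, 7.41 and 5.71 times the minimum of the respective list. In Cbx3 siRNA Pol II the 9 windows from 39981101 to 39981550 were unlisted, yet the windows on either side had signals of 140 and 122. Control siRNA Pol II missed the 12 windows from 39982701 to 39983300 between signals of 110 and 85.9. In control siRNA Med26, 33 windows from 39981051 to 39982700 were missing between 125 and 104. Across the whole untreated Pol II list, 1418 gaps of 1 to 20 windows lay between consecutive listed windows. In 6 of them both bordering windows reached 5 times the list minimum, and all 6 lay in Rn45s. The same held for 5 of 6 such gaps in control siRNA Pol II, 8 of 8 in Cbx3 siRNA Pol II and 1 of 1 in control siRNA Med26. Both Cdk8 libraries had no such gap at Rn45s. In the Cbx3 lists, 44595 gaps of set 1 and 139 of set 2 met the bound, with 1 of each in Rn45s. This count was chosen after the values were seen. Every listed Rn45s window of the Pol II libraries and of control siRNA Med26 was at least 5.71 times the list minimum. Each gap there thus met the bound through the choice of a locus of high signal, and the count is no separate trait. Given the signals beside them, absent Rn45s windows cannot be read as low signal in the Pol II and Med26 lists. What kept these windows out was not tested.

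The siRNA comparisons asked whether occupancy differed after Cbx3 knockdown, and each rests on 1 library per arm with no replicate check. Cdk8 signal at Rn45s was slightly higher after Cbx3 siRNA in 103 of the 105 windows shared by the arms. The log2 difference (Cbx3 siRNA minus control) had a median of 0.24 (binomial interval of the median 0.21 to 0.28), or 1.18-fold. The interval takes windows as independent, though neighbouring windows share reads, and does not cover variation between libraries. Over all 2461 windows that Cdk8 listed in both arms, the median was 0.10 and 57.9% were higher. In the 1114 windows outside the locus with a signal at least that of the lowest shared Rn45s window, it was 0.15. In the 28 outside windows that reached the median signal of the shared Rn45s windows, it was -0.01. No Rn45s window was higher by 1.5-fold or more, against 12.6% of all Cdk8 windows listed in both, and none was lower by as much, against 10.2%.

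The Cdk8 difference varied along the locus. Its median was 0.29 in the first block (74 windows) and 0.15 in the second (30 windows). The largest rise was at 39981501, where the signal went from 190 to 283 (log2 difference 0.58). The largest fall was at 39984301 between the blocks, from 29.0 to 21.2 (-0.46), on few reads. From 39981351 to 39982850 the windows lay between 0.20 and 0.58, and in the second block between -0.03 and 0.24. Cdk8 windows of Rn45s were mostly listed again: 6 of 111 control windows were unlisted after Cbx3 siRNA, against 75.3% of all Cdk8 control windows, and 6 of 111 were new, against 77.5% of all. The locus was chosen by its listed signal, with a control median of 196 against 8.46 for the whole list. This contrast is thus no separate trait of Rn45s. The 12 windows listed in 1 arm alone had signals of 8.43 to 61.9, at the low end of the locus.

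Pol II at Rn45s had nearly the same signal in both arms where it was listed in both. In 33 shared windows the median log2 difference was 0.02 (interval -0.02 to 0.08), with 20 windows higher and 13 lower. Over all 74288 shared Pol II windows the median was -0.29, and only 25.7% were higher after Cbx3 siRNA. In the 791 windows outside the locus with at least the signal of the lowest shared Rn45s window, it was -0.36, and in the 3 that reached the Rn45s median it was -0.45. The Rn45s windows ranged from -0.39 at 39985701, where the signal went from 111 to 84.6, to 0.23 at 39984751, where it went from 49.3 to 57.8. None of them differed by 1.5-fold or more, against 2.92% of all shared windows that were higher and 24.2% that were lower by as much. If values are set relative to the median of all shared windows, Rn45s lay 0.31 above it.

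Pol II nevertheless listed different windows in the arms, as it did over the whole list. Of 58 control windows, 25 (43.1%) were unlisted after Cbx3 siRNA, against 36.0% of all Pol II control windows. Of 45 windows after Cbx3 siRNA, 12 (26.7%) were unlisted in the control, against 26.5% of all. The control windows not listed again had signals of 44.5 to 146, so they included some of the highest of the locus. In the first block the number fell from 45 to 25, and in the second it went from 13 to 20. With unlisted windows counted as 0, the summed Rn45s signal went from 6631 to 5112, a log2 ratio of -0.38 that has the opposite sign to the median of shared windows.

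**Figure D5:**
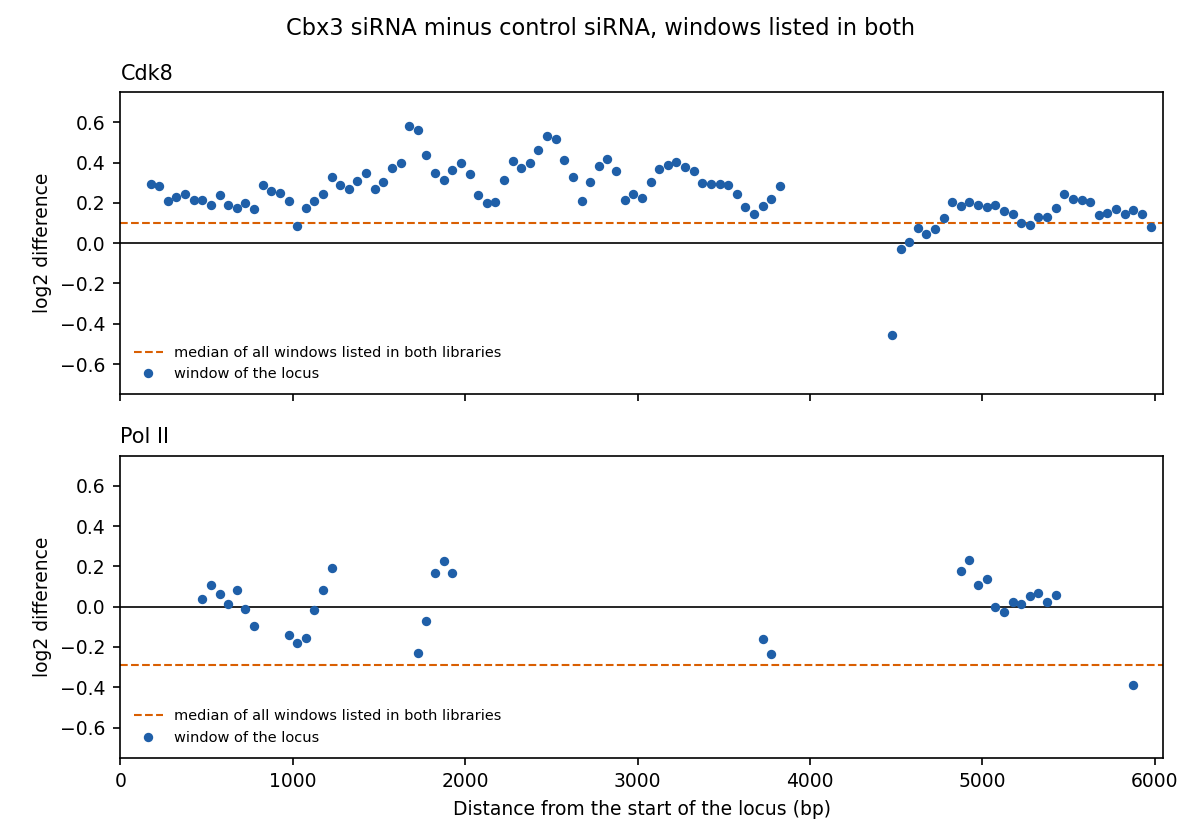
log2 difference of each Rn45s window listed in both arms, Cbx3 siRNA minus control siRNA, for Cdk8 (105 windows) and Pol II (33 windows). The dashed line is the median of all windows listed in both arms, 0.10 for Cdk8 and -0.29 for Pol II, and most Rn45s windows lie above it.

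Med26 had no Rn45s window listed in both arms. All 16 control windows were unlisted after Cbx3 siRNA, against 93.9% of all Med26 control windows, and the 1 window listed after Cbx3 siRNA was unlisted in the control, as were 65.0% of all. The 16 control windows had a median of 124 and ranged from 44.6 at 39984751 to 145 at 39980301. The window at 39981151 after Cbx3 siRNA had 112, below 13 of these 16 and well above the next highest window of that list. The highest Rn45s window was thus 22.9% lower after Cbx3 siRNA (log2 ratio -0.37), a ratio of windows at different places. Over all 953 windows that Med26 listed in both arms, none of them in Rn45s, the median log2 difference was -0.64 (interval -0.68 to -0.60), and 8.81% were higher. That median compares the same windows in both arms, so it cannot be ranked against the ratio of the highest Rn45s windows. The highest signal outside the locus in the Med26 lists went from 123 to 59.0, both on chromosome 9 from 44688451 to 44690450.

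Pol II in untreated and control siRNA cells, a pair without a knockdown, was compared in the same way. This comparison shares its control siRNA library with the previous Pol II one. In 36 shared Rn45s windows the log2 difference (control siRNA minus untreated) had a median of -0.01 (interval -0.08 to 0.11), with 17 windows higher and 19 lower. Over all 32821 shared windows it was 0.60, and 88.0% were higher. In the 126 windows outside the locus with at least the signal of the lowest shared Rn45s window, it was 0.39, and in the 3 that reached the Rn45s median it was 0.15. The Rn45s windows ranged from -0.50 at 39982201 (157 to 111) to 0.34 at 39981451 (115 to 146). In listing, 15 of the 51 untreated windows (29.4%) were missing under control siRNA, with signals of up to 149, against 5.84% of all untreated Pol II windows. Of the 58 control siRNA windows, 22 (37.9%) were unlisted in untreated cells, against 71.7% of all.

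The Cbx3 sets overlapped widely in their Rn45s windows. All 101 windows of set 2 were among the 109 of set 1, whereas 86.9% of all set 2 windows were unlisted in set 1. Of the 109 windows of set 1, 8 (7.34%) were unlisted in set 2, against 96.5% of all, and these 8 windows of set 1 alone had signals of 101 to 407. As the locus was chosen by its listed signal, these contrasts with all windows are no separate trait of it. The median log2 difference, set 1 minus set 2, was 0.80 (lowest 0.49 at 39982101, highest 1.32 at 39984751), against 1.19 over all 32031 windows listed in both sets. As 1 read carried more signal in set 1, by 0.87 on the log2 scale, the Rn45s difference expressed in reads was -0.07, with 0.32 over all shared windows. The highest window was at 39982401 in set 1 and at 39982201 in set 2, 200 bp apart.

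Of 525774 merged stretches of windows listed in any library, 10 had a window from every library, and Rn45s was 1 of them. Its highest window exceeded that of each of the other 9 stretches in all 9 libraries, by 1.18 to 15.5 times in control siRNA Med26, 17.4 to 24.1 times in Cbx3 set 1, 13.9 to 62.7 times in control siRNA Cdk8 and 3.10 to 5.83 times in control siRNA Pol II. The pattern over the 9 libraries most like that of Rn45s, by Pearson's correlation of log2 highest signals, was on chromosome 19 from 55390251 to 55391250 (0.588), followed by chromosome 1 from 134313801 to 134314600 (0.560), chromosome 7 from 31373451 to 31375050 (0.487), chromosome 11 from 79805901 to 79807200 (0.409) and chromosome 3 from 90035351 to 90036100 (0.372). The stretch on chromosome 19 was also raised in Cdk8, with 30.5 and 21.3 under control and Cbx3 siRNA. These correlations rest on 9 libraries that differ in the signal of 1 read, and none was high.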

How the data were processed

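The data are lists of 50 bp windows, each with a signal value, deposited by the authors for 9 ChIP libraries. Bowtie and the build mm9 stand in the submitters' processing notes. How the authors tested windows against the 7 inputs, if they did, and how they handled reads with several matches is not given in the sources used here. The signal is in the authors' own unit, and values within a siRNA pair were compared as deposited, where 1 read was worth the same signal in each file.

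The locus and its flanks of 50 kb were cut from each list. Regions are listed windows merged across gaps of up to 200 bp. Differences between libraries are log2 ratios of the deposited signal in windows listed in both, with a fold of 1.5 as the call and a 95% binomial interval for medians. All these intervals take windows as independent, though neighbouring windows share reads, so they are likely too narrow. The parts of the locus printed as blocks were set at the longest run of windows unlisted in both Cbx3 sets, after the values were seen. Windows named are the highest, first or last of a library, the largest rise and fall of a pair, and those that show a shared peak, dip or gap, which were chosen after their values were seen.

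No test was possible or run, as each group but Cbx3 had 1 library, and the locus was chosen with earlier results of these data known. Total reads per library are unknown, and depth limits the precision by an unknown amount. Groups follow the sample titles. Functions were tested on simulated data. The computations used Python 3.11.15, numpy 2.4.6, pandas 2.3.3, scipy 1.17.1, statsmodels 0.14.6 and matplotlib 3.10.9. No sequence is printed, as no genome of mm9 was used here.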

Additional observations from a re-analysis of the deposited data

Results flagged for a closer look

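Under the same contrast, Cbx3 siRNA against control, the highest Rn45s windows of the Mediator subunits moved in opposite directions. The log2 ratio of the highest window was -0.37 for Med26 and 0.13 for Cdk8. The Med26 ratio sets the window at 39980301 against that at 39981151, as no Rn45s window was listed in both arms, and an unlisted Med26 window cannot be read as low. Over all windows listed in both arms the median was -0.64 for Med26 and 0.10 for Cdk8, so opposite signs were not particular to Rn45s. The difference between the antibodies was not tested, with 1 library per arm, and by the labels Med26 had separate input libraries.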

How the results depend on the processing

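The sign of the Cdk8 difference at Rn45s held under every alternative run, and those of siRNA Pol II and of the Cbx3 sets under all but 1. For Med26 the only alternative with a value was the summed signal with unlisted windows as 0. Its sign follows from 16 listed windows against 1, so it cannot bear on the sign of the ratio of highest windows. Expressed in reads, an alternative chosen after seeing the data, the difference of Cbx3 set 1 from set 2 was -0.071 in place of 0.80, which follows from the larger signal of 1 read in set 1. With unlisted windows counted as 0, the Pol II log2 ratio of summed signal was -0.38 in place of the median of 0.02, which follows from its 25 control windows not listed again, and the Med26 ratio was -4.12 in place of -0.37. From the highest windows the Cdk8 difference was 0.13. Centred on all shared windows, the differences were 0.14 for Cdk8, 0.31 for siRNA Pol II and -0.62 for control minus untreated Pol II. Scaled to the listed signal outside the locus, they were 0.10 for Cdk8 and 0.42 for siRNA Pol II. Cdk8 gave 0.29 in the first and 0.15 in the second block, a split chosen after seeing the data. The median correlation of profiles fell from 0.756 to 0.405 with unlisted windows as 0, and the share of Cbx3 set 1 windows in flanks of 10 kb was 1.5%. With 1 Cbx3 set left out, the count became that of the other set alone, 101 or 109 windows, so it is no check of the overlap of the sets. Med26 had no shared window, so its other alternatives gave no value. The other 54 values, the Cbx3 counts with 1 set left out among them, stayed within their interval, spread or 1.5 times their count. No paired analysis was possible because Pol II, Med26 and Cdk8 had only 1 library in each siRNA arm, and Cbx3 had none there.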
